A study of Mus musculus with 2 samples.

Results

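Neuregulins and the ErbB receptors they act on were followed in 2 total RNA-seq libraries from mouse hippocampus. The set held 8 genes of the 55536 annotated ones, taken by gene name: the ligand genes Nrg1, Nrg2, Nrg3 and Nrg4 and the receptor genes Egfr, Erbb2, Erbb3 and Erbb4. Both libraries were of the same kind, tissue labelled as a layer of hippocampus from female B6CASTF1/J mice aged 36 days, the first-generation cross of C57BL/6J with CAST/EiJ. No treatment, mutation or second condition is named, so the libraries form 1 group of 2 biological replicates. Each library came from 300 ng of RNA with ERCC spike-in RNAs, a set of synthetic transcripts added at known amounts. The replicates carry separate biosamples under 1 shared donor record, so the labels do not say outright whether they are 2 animals, and the spread between them may be partly technical. With 1 group there is no comparison of conditions, and every value below is a level with its spread, or a difference between the replicates with no p-value.

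Neuregulins are growth factors with an EGF-like domain, made mostly as membrane-anchored precursors and released by proteases such as the BACE1 and ADAM enzymes. The EGF-like domain of Nrg1 and Nrg2 products binds ErbB3 and ErbB4, and that of Nrg3 and Nrg4 products binds ErbB4. EGFR binds other ligands, such as EGF, TGF-alpha and HB-EGF, while ErbB2 has no known ligand and works as a partner of the other receptors, and ErbB3 has very little kinase activity of its own. In the forebrain, ErbB4 is best known from GABAergic interneurons and their synapses, ErbB3 from the oligodendrocyte lineage (and, outside the brain, Schwann cells), and EGFR from neural precursors and glia.

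Several of these genes make proteins that differ by a single short exon. Those exons are shown first because the transcript results below turn on them. The sequences were cut from the GENCODE M21 transcripts (mm10), all lie on the minus strand, and all are written 5′ to 3′ in the direction of the RNA. Capitals mark the exon, or the extension of one, and lower-case letters the 12 bases on each side of it in the RNA. ErbB4 has alternative juxtamembrane exons just outside the membrane. The JM-a exon makes a receptor that ADAM17 can cut, and the JM-b exon one that resists the cut. The CYT-1 exon adds a binding site for PI3-kinase and a motif for ubiquitin ligases such as ITCH in the intracellular tail, and a receptor without it is called CYT-2.
Erbb4 JM-a exon, chr1:68290243-68290317: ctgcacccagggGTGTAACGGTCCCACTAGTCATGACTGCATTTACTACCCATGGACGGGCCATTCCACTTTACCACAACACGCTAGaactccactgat
Erbb4 JM-b exon, chr1:68290439-68290483: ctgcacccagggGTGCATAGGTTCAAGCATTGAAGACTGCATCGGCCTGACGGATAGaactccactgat
Erbb4 CYT-1 exon, chr1:68043908-68043955: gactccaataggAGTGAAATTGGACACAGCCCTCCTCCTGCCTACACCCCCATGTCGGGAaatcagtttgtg
The JM-a exon is 75 bases long, the JM-b exon 45 and the CYT-1 exon 48, and each keeps the reading frame, with 25, 15 and 16 codons. The JM-a and JM-b exons sit between the same neighbours: the 12 bases before and after them are identical in both lines.

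In Nrg1, alternative exons encode the last part of the EGF-like domain. The beta form is known to bind its receptors more tightly than the alpha form and to be the main form in nervous tissue.
Nrg1 alpha exon, chr8:31838261-31838328: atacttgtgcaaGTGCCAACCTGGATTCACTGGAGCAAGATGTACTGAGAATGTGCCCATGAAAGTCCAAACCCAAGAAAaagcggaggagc
Nrg1 beta exon, chr8:31837670-31837728: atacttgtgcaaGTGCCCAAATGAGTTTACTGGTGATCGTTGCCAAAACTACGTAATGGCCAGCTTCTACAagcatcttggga
The alpha exon has 68 bases and the beta exon 59, and here too the 12 bases before the exon are the same. The bases after it differ, since the exon that follows is not the same in the transcripts shown, Nrg1-213 for alpha and Nrg1-203 for beta.

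In Nrg3, the transcript of highest level carries an exon of 72 bases (24 codons) that the other annotated transcripts lack, and another coding transcript has one exon extended by 24 bases (8 codons). The coding sequences of Nrg3-201, Nrg3-202 and Nrg3-203 are 2139, 2091 and 2067 bases long, so they differ by exactly these stretches.
Nrg3 exon of 72 bases in Nrg3-201, chr14:38371277-38371348: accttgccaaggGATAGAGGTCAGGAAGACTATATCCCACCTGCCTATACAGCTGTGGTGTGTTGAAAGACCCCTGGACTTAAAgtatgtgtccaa
Nrg3 extension of 24 bases in Nrg3-202, chr14:38376484-38376507: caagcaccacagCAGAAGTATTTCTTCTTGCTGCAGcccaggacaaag

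Levels are given in TPM, a share of all transcripts that corrects for transcript length and can be compared between genes. Each TPM comes from the authors' gene table unless the second quantification, another deposited estimate from the same libraries, is named. A gene was called detected where each library gave it at least 1 TPM. By this rule 6 of the 8 members were detected, where 57.6% of the 22028 protein-coding genes and 26.3% of all annotated genes were. The members below that level were Nrg4 and Erbb2.

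Among the ligands, Nrg3 stood highest. Nrg3 (chr14:38368952-39473088), which encodes a brain-enriched ligand of ErbB4, was at 25.4 TPM in replicate 1 and 23.9 TPM in replicate 2 (24.6 ± 1.10, SD, n = 2), from 1942 and 1785 counts. Its level exceeded that of 80.9% of all protein-coding genes and of 66.9% of the detected ones, whose median was 14.7 TPM. Nrg1 (chr8:31814551-32884029), the ligand best known for its part in myelination and synapse function, was at 4.27 and 3.87 TPM (4.07 ± 0.28), from 295 and 281 counts. Nrg2 (chr18:36017652-36197380), a close relative of Nrg1, was at 3.91 and 6.22 TPM (5.07 ± 1.63), from 235 and 256 counts. These 2 ligands stood several-fold under Nrg3 in both libraries, and their ranges overlapped each other. Nrg4 (chr9:55220222-55326844), a ligand better known from fat tissue, was lowest at 0.45 and 0.46 TPM, from 12 and 9 counts, whose exact 95% Poisson intervals were 6.20 to 20.96 and 4.12 to 17.1 counts. Such intervals cover counting error only.

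Nrg3 made up 74.6% of the summed neuregulin TPM in replicate 1 and 69.3% in replicate 2 (71.99 ± 3.75%). The sums themselves were close, 34.03 and 34.4 TPM. The lower share in replicate 2 went with the higher Nrg2 value there, 18.1% against 11.5% in replicate 1, while Nrg1 took 12.5 and 11.3%, and Nrg4 1.32 and 1.34%. In the second quantification Nrg3 took 69.3 ± 4.36%.

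Among the receptors, Erbb4 stood highest. Erbb4 (chr1:68032186-69108059) was at 19.5 and 19.1 TPM (19.3 ± 0.23), from 3173 and 2962 counts, above 76.3% of protein-coding genes. Egfr (chr11:16752203-16918158) was at 4.47 and 5.63 TPM (5.05 ± 0.82), from 689 and 710 counts. Erbb3 (chr10:128567523-128589652) was at 3.14 and 2.63 TPM (2.89 ± 0.36), from 437 and 349 counts. Erbb2 (chr11:98412470-98437716), the ligandless partner, was at 0.84 and 0.75 TPM (0.795 ± 0.064), from 82 and 81 counts. No 2 receptors overlapped in their range of TPM. By counts per kb of the longest annotated transcript, Egfr (67.5 and 69.6) and Erbb3 (72.6 and 58.0) did overlap. Erbb4 made up 69.7 and 67.98% of the receptor TPM (68.9 ± 1.23%; 65.4 ± 3.34% in the second quantification), Egfr 16.0 and 20.0%, Erbb3 11.3 and 9.35%, and Erbb2 3.01 and 2.67%. The receptor sums were 27.9 and 28.1 TPM.

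**Figure D1:**
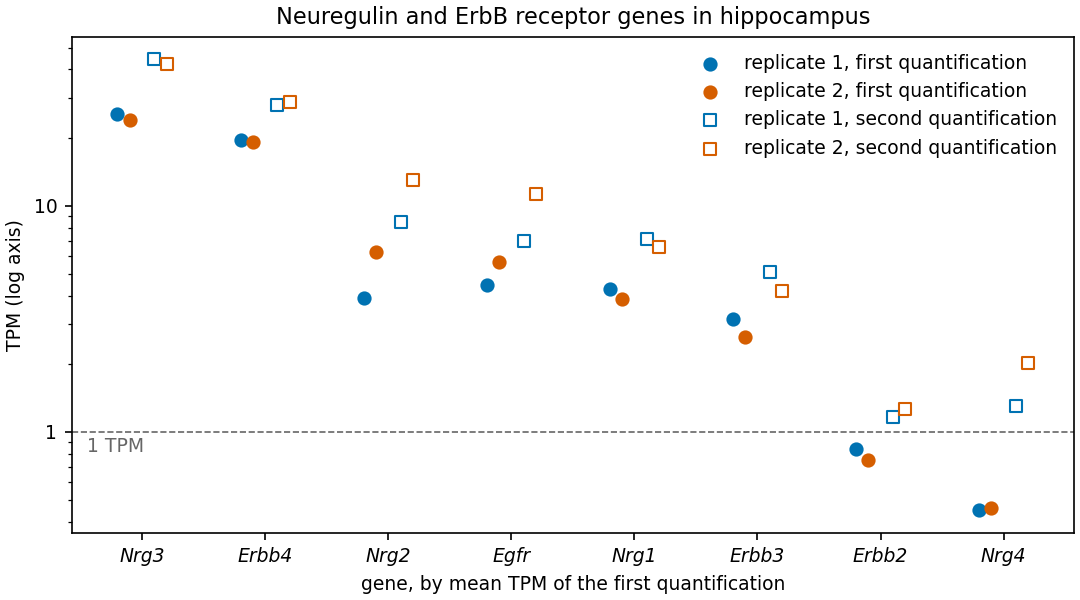
Level of each gene in TPM, on a log axis, in each library (colour) and in each of the deposited quantifications (filled circles, first; open squares, second), ordered by the mean of the first. Nrg3 (25.4 and 23.9 TPM) and Erbb4 (19.5 and 19.1 TPM) stand above the other 6 genes in both libraries and both quantifications, and Erbb2 and Nrg4 lie under 1 TPM in the first quantification and above it in the second.

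Ordered by mean TPM, the 8 genes ran Nrg3, Erbb4, Nrg2, Egfr, Nrg1, Erbb3, Erbb2 and Nrg4. The means of Nrg3 and Erbb4 differed 1.28-fold, and the lower Nrg3 value, 23.9 TPM, was still above the higher Erbb4 value, 19.5 TPM. By counts per kb of the longest annotated transcript they stood further apart, at 484 and 445 for Nrg3 and 264 and 246 for Erbb4. In TPM, the step from Erbb4 to Nrg2 was wider than that from Nrg3 to Erbb4, 4.98-fold in replicate 1 and 3.08-fold in replicate 2. Nrg2 and Egfr were the neighbours whose ranges overlapped, and their means differed by less than their spread. Egfr and Nrg1 were separated by 4.47 against 4.27 TPM at the nearest, and Erbb3 exceeded Erbb2 3.74- and 3.51-fold. Of the 28 pairs of members, 26 were ordered alike in both libraries, and the exceptions both involved Nrg2, which lay under Nrg1 and Egfr in replicate 1 and above them in replicate 2. The second quantification gave the same leading pair with higher TPM, 44.4 and 42.4 for Nrg3 and 27.9 and 28.7 for Erbb4. It placed Nrg4, at 1.30 and 2.01 TPM, above Erbb2, at 1.16 and 1.26 TPM. Protein-coding genes held 44.3 and 42.7% of all TPM in the first quantification and 79.2 and 78.4% in the second, so TPM is compared between genes within 1 quantification only.

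The Erbb4 RNA divided almost evenly between the juxtamembrane forms. Transcripts with the JM-a exon held 49.5 and 49.4% of the gene's TPM (49.5 ± 0.098%), and those with the JM-b exon 47.8 and 47.0% (47.4 ± 0.53%). All of the latter was in Erbb4-205, since Erbb4-204, the other transcript with the JM-b exon, had no counts. The second quantification put JM-a at 54.0 ± 1.251% and JM-b at 40.5 ± 1.48%, so JM-a was the higher of the pair in both libraries and both quantifications, by little in the first. In counts the split was far from even, because the transcripts differ in annotated length: Erbb4-202, the JM-a transcript, is 12037 bases long and took 2666 and 2505 counts, while Erbb4-205 is 2196 bases long and took 459 and 423. The annotation of Erbb4-205 stops inside the coding sequence, so it does not say which intracellular tail the JM-b receptor has. Reads from the part of a longer JM-b RNA beyond that point would be counted with other Erbb4 transcripts, and the even split in TPM rests on this short model.

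The CYT-1 exon was scarce. It is annotated in 1 transcript, Erbb4-201, which took 40.3 and 24.04 counts and 0.62 ± 0.21% of the Erbb4 TPM (1.36 ± 0.27% in the second quantification, from 83.9 and 61.1 estimated counts). Among transcripts whose intracellular tail is annotated, Erbb4-202, which lacks the exon and so encodes the CYT-2 tail, was at 9.49 and 9.36 TPM, against 0.15 and 0.09 TPM for Erbb4-201. The deposited bounds of Erbb4-201, 0.021 to 0.48 TPM in replicate 1 and 0.0071 to 0.45 in replicate 2, lay wholly under those of Erbb4-202, 8.70 to 9.59 and 8.53 to 9.43. The remaining listed transcript with reads, the retained-intron Erbb4-203, held 2.69 and 3.54% (5.66 and 5.33% in the second quantification).

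The beta exon held far more of the Nrg1 RNA than the alpha exon. Transcripts with the beta exon took 236 and 234 counts and 64.4 and 66.0% of the gene's TPM (65.2 ± 1.11%), while those with the alpha exon took 8.94 and 5.86 counts and 3.28 and 2.58% (2.93 ± 0.50%). In the second quantification the beta share was 61.8 ± 3.46% and the alpha share 8.44 ± 6.54%, the latter from 11.3 and 25.7 estimated counts. The alpha share thus moved with the quantification but stayed below the beta share in each library.

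The rest of the Nrg1 TPM lay in transcripts annotated with a retained intron. Of 18 annotated Nrg1 transcripts, 11 had counts, and the leading one was Nrg1-203, a beta transcript of 5415 bases, at 1.20 and 1.35 TPM (28.2 and 34.9%). The retained-intron transcript Nrg1-204 was at 0.83 and 0.92 TPM (19.4 and 23.7%) and the coding Nrg1-218 at 0.65 and 0.93 TPM, so that their order differed between the libraries. Transcripts annotated as noncoding together held 32.3 and 31.4% of the Nrg1 TPM, where the median of the 12679 detected protein-coding genes was 10.2 and 11.2%. Nrg1-201 was at 0.45 TPM in replicate 1 and listed at 0 in replicate 2, while the second quantification gave 12.9 and 8.26% of the gene's TPM.

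Nrg1 is a gene of 1069 kb with several widely spaced starts, which give its products different N-terminal parts. Transcripts from the farthest upstream start (position 32884029 on the minus strand of chromosome 8) held 22.1 ± 2.71% of the TPM, those of the group beginning at 32009491, which includes Nrg1-203, 40.2 ± 1.16%, and those of the group beginning at 31918391 37.8 ± 3.86%. In the first quantification the last group was made up mostly of the retained-intron Nrg1-204 and Nrg1-207. Its coding transcripts came to 0.63 and 0.23 TPM there, against 1.4 and 1.5 TPM for the coding transcripts of the middle group and 0.86 and 0.93 TPM for the upstream one. In the second quantification the upstream group held less, 13.7 ± 5.73%, while the middle group held 46.5 ± 6.12% and the last 39.9 ± 11.8%. There Nrg1-201, a coding transcript of the last group, was at 0.92 and 0.54 TPM, and the upstream Nrg1-218 at 0.69 and 1.16 TPM. The order of coding levels in the last and upstream groups thus depended on the library and the quantification. Transcripts listed at 0 made up the remaining start groups.

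In Nrg3, Nrg3-201 with its exon of 72 bases led in both libraries at 13.2 and 12.6 TPM, 52.2 ± 0.65% of the gene's TPM (46.5 ± 0.42% in the second quantification). Nrg3-203, without the exon, held 24.03 and 17.6%, and Nrg3-202, with the extension of 24 bases, 8.30 ± 0.42%. The retained-intron Nrg3-204 held 16.2 and 21.1%, from 339 and 396 counts, so that in the first quantification it lay under Nrg3-203 in replicate 1 and above it in replicate 2. In the second quantification it lay under Nrg3-203 in both, at 14.9 and 19.8% against 30.4 and 27.0%. All 4 annotated transcripts had counts in both libraries.

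Egfr was led by the coding transcripts Egfr-201 and Egfr-202 in the first quantification, and less clearly in the second. Egfr-201 is 10208 bases long with a coding sequence of 3630 bases, and was at 2.54 and 2.66 TPM. Egfr-202, at 1.19 and 1.44 TPM from 79.7 and 91.8 counts, is 2943 bases long with a coding sequence of 1965 bases, and ends before the exons of the kinase domain, so it encodes a shortened receptor. It held 26.6 and 25.6% of the Egfr TPM in the first quantification and 14.99 and 15.6% in the second. The noncoding Egfr-205, of 446 bases, held 16.7 and 16.8% from 6.09 and 7.33 counts, and 6.49 and 5.19% in the second quantification. Egfr-204, of 716 bases, was listed at 0 in replicate 1 and took 10.4% in replicate 2, from 8.05 counts. In the second quantification it held 17.4 and 40.4%, above Egfr-202 in both libraries and above Egfr-201, at 61.1 and 38.9%, in replicate 2.

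**Figure D2:**
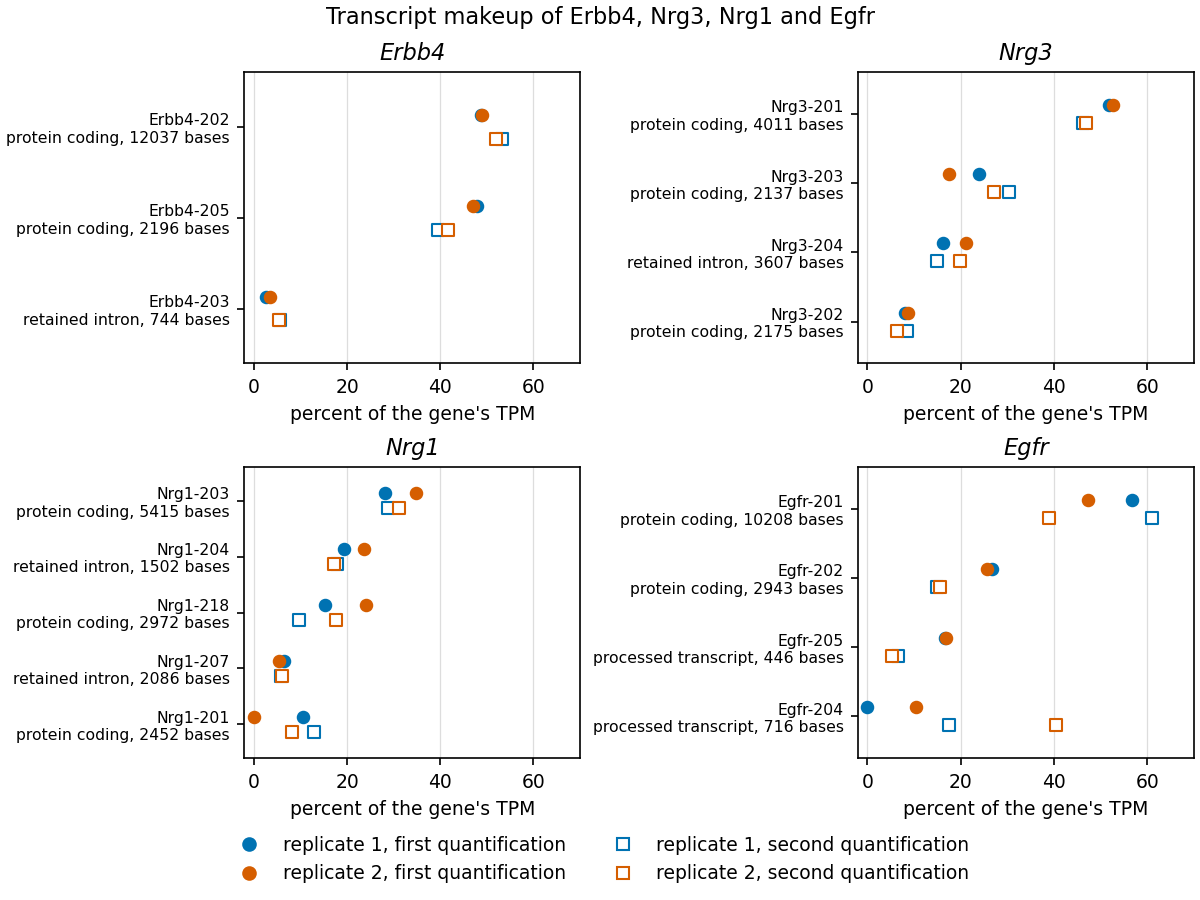
Percent of each gene's TPM held by each transcript that held 5% or more in both libraries of either quantification, for Erbb4, Nrg3, Nrg1 and Egfr (filled circles, first quantification; open squares, second; colour, library). Erbb4-202 and Erbb4-205 lie near each other at 48.8 to 48.9% and 47.0 to 47.8% in the first quantification, Nrg3-201 leads Nrg3 in all 4 estimates, and Egfr-204 spans the widest range of the Egfr transcripts.

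Such short transcripts bear on the gene-level TPM of Nrg2 and Egfr, the members that differed most between libraries. The Nrg2 TPM was 1.59-fold higher in replicate 2, while its count was 1.09-fold higher. For Egfr the TPM was 1.26-fold higher and the count 1.03-fold. The leading Nrg2 transcript, Nrg2-203, was close in both at 3.33 and 3.46 TPM, while the other Nrg2 transcripts summed to 0.59 and 2.75 TPM on 3.60 and 26.5 counts. Among them, Nrg2-204, of 328 bases, was at 0.44 and 1.42 TPM on 2.36 and 7.31 counts, and Nrg2-201, of 899 bases, at 0 and 0.75 TPM on 0 and 13.4 counts. The average length of Nrg2 RNA used for the TPM was accordingly 2652 bases in replicate 1 and 1935 in replicate 2. For Egfr, Egfr-201 was close in both, as above, and the other transcripts were at 1.94 and 2.96 TPM. In the second quantification Nrg2-204 was listed at 0 in both libraries, Nrg2-201 was at 3.20 and 3.97 TPM, and Nrg2-205, of 453 bases, was at 0 and 3.32 TPM on 0 and 7.42 estimated counts. In both quantifications the gene-level difference of Nrg2 lay mostly in transcripts with few counts, which were only partly the same ones. Nrg2-201 and Nrg2-205 were higher in replicate 2 in both quantifications, and Nrg2-204 only in the first.

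The other members had simpler or thinner evidence. Erbb3 has a single annotated transcript of 6016 bases. For Erbb2, Erbb2-201, of 5012 bases, held 83.3 and 82.8% of the TPM in the first quantification, and nearly all in replicate 1 but 51.1% in replicate 2 in the second. No protein-coding Nrg4 transcript was seen in both libraries: the coding Nrg4-213 took 3.22 counts in replicate 1 and 0 in replicate 2, and the level of the gene came from transcripts annotated as noncoding or as targets of nonsense-mediated decay, such as Nrg4-208 (0.18 and 0.14 TPM) and Nrg4-212 (0.10 and 0.21 TPM). A count of 0 allows up to 3 counts, by a one-sided 95% limit for counting error only. That limit leaves out the sharing of reads between transcripts. Nrg4 also shares 368 exon bases with Fbxo22 on the opposite strand, which took 631 and 628 counts, and whether strand was used in the counting is not given in the sources used here. The deposited interval did not hold the deposited TPM for Nrg4 (0.45 TPM against a lower bound of 0.70 in replicate 1) or, by a small margin, Nrg1 (4.27 against 4.29). The transcript of highest mean TPM was the same in both quantifications for 7 of the 8 members, of which Erbb3 has only 1 transcript, and for 75% of the 12170 genes with more than 1 transcript and a mean of at least 1 TPM. The exception was Nrg4, with Nrg4-208 in the first quantification and Nrg4-205 in the second.

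The replicates were then compared by counts scaled with edgeR's TMM method, in genes with a mean of 100 counts or more. Nrg4 and Erbb2 fell under that minimum, and none of the 6 members left differed past 2-fold, where 0.466% of the 12651 genes compared did, 0.372% higher and 0.0949% lower in replicate 2. In each direction there were 3 members, against 45.7% of genes higher and 54.3% lower in replicate 2. The log2 ratio of replicate 2 over replicate 1 was 0.01 for Nrg1, 0.20 for Nrg2, -0.04 for Nrg3, 0.12 for Egfr, -0.25 for Erbb3 and -0.02 for Erbb4. The median size of these ratios was 0.082 for the members and 0.085 for all genes compared. For 5 of the 6 the exact 95% interval for counting error held 0. The share of all genes compared whose interval held 0 was not computed. Such intervals leave out the variation between replicates, so leaving out 0 does not set a member apart from other genes. The intervals were narrow for Erbb4, from -0.09 to 0.05, and Nrg3, from -0.14 to 0.05, and wider for Nrg1, from -0.23 to 0.25, and Nrg2, from -0.06 to 0.46. Scaling by the 41 usable spike-in RNAs added 0.26 to every log2 ratio and moved the median of all genes from -0.01 to 0.25, and under it Nrg3 (0.22), Erbb4 (0.24) and Erbb3 (0.02) turned from lower to higher in replicate 2.

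Erbb3 was the member whose interval left out 0, at -0.45 to -0.04 under TMM scaling. Under spike-in scaling the log2 ratio of Erbb3 was 0.02. Its 437 and 349 counts in replicates 1 and 2 were set beside the markers of the cells that could hold it. All 7 oligodendrocyte markers were lower in replicate 2 under TMM scaling with a median log2 ratio of -0.35, and 6 of 7 were under spike-in scaling, with a median of -0.08. Their highest member, Mbp, a main protein of myelin, was at 658 and 492 TPM. Sox10, the transcription factor of the lineage, was at 11.6 and 10.8 TPM (log2 ratio -0.03), named here after its values were seen. Oligodendrocyte precursor markers were lower in 4 of 5, with a median of -0.08, under TMM scaling, and higher in 4 of 5, with a median of 0.18, under spike-in scaling. Beside these, 54.3% of all genes compared were lower in replicate 2 under TMM scaling, and the median of all genes under spike-in scaling was 0.25. The part of these cells in the Erbb3 difference was not tested, and in bulk tissue fewer cells of a type and less RNA per cell cannot be told apart. Schwann cell markers were near absent: none of 4 was detected, Pmp2 had 0 counts in both libraries, which allows up to 3, and Prx and Ncmap were at 0.17 ± 0.014 and 0.175 ± 0.021 TPM.

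For Erbb4, whose log2 ratio was -0.02, the GABAergic interneuron markers had a median of -0.10 and were lower in replicate 2 in 8 of 8 under TMM scaling and in 0 of 8 under spike-in scaling. Sst, which encodes the peptide somatostatin and led that list, was at 180 and 167 TPM, well above Erbb4. All 5 excitatory neuron markers, led by Camk2a, were detected, and their median was also -0.10. Of all genes compared, 54.3% were lower in replicate 2 under TMM scaling, and spike-in scaling moved the median of all genes to 0.25. For Egfr, at 0.12, the astrocyte markers, led by Slc1a2, had a median of 0.01. The markers of microglia, led by Csf1r, and of endothelium, led by Ly6c1, had medians of -0.07 and -0.02. Every marker of neurons, astrocytes, oligodendrocytes, their precursors and microglia was detected. These are markers of brain cells in general and do not test the hippocampal label itself.

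Choroid plexus markers were far higher in replicate 2. The summed TPM of the 9 choroid plexus markers was 26.8 in replicate 1 and 1298 in replicate 2, and the 6 with enough counts, Ttr, Clic6, Kl, Aqp1, Slc4a5 and Sostdc1, were each past 2-fold. The 7 meningeal fibroblast markers summed to 54.99 and 106.7 TPM, of which Igf2, the 1 past 2-fold, held 24.7 and 62.5 TPM. They did not differ evenly: the 5 with enough counts ran from 0.08 to 1.36 in log2 ratio. Of the members compared, Nrg1, Nrg2 and Egfr were higher in replicate 2 under TMM scaling, with log2 ratios of 0.01, 0.20 and 0.12. The interval for counting error held 0 for each of them. The part of these tissues in the values of the members was not tested.

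**Figure D3:**
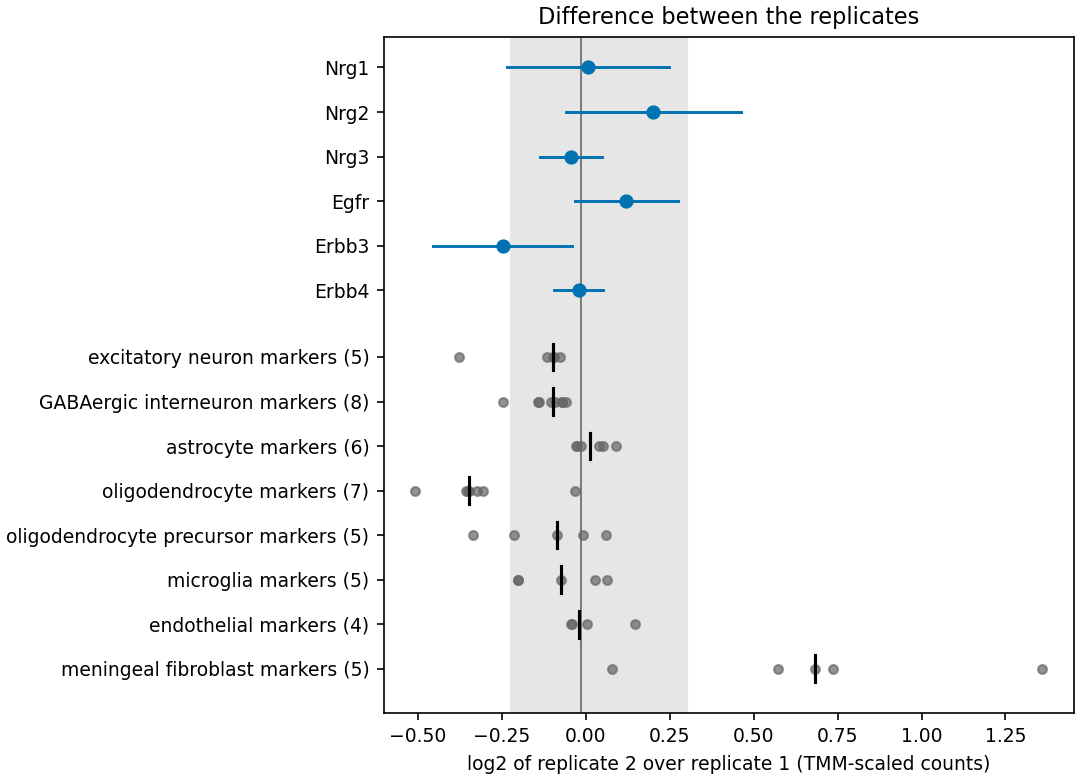
Log2 of replicate 2 over replicate 1 on TMM-scaled counts: blue points, the 6 members with enough counts, with exact 95% intervals for counting error; grey points, single marker genes of each cell type, with the number plotted and a black bar at the median. The grey band holds the middle 90% of all 12651 genes compared, and the grey line is their median, -0.01. Erbb3, at -0.25, lies just outside the lower edge of the band, -0.22, and 6 of the 7 oligodendrocyte markers lie further outside it. The choroid plexus markers, with a median of 4.57, are beyond the axis and are not drawn.

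Of 52 pathway genes in 5 lists, 45 were detected, against 57.6% of protein-coding genes. None of the 45 with enough counts differed past 2-fold between replicates, where 0.466% of all genes compared did. Under TMM scaling 17 were higher and 28 lower in replicate 2, against 45.7% and 54.3% of all genes compared. Under spike-in scaling 44 were higher and 1 lower. That scaling moved the median of all genes to 0.25, and the share of all genes higher under it was not computed. By mean TPM, 19 of the 52 lay above Nrg3 and 25 above Erbb4, the leading members.

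The fewest in the first quantification were detected among the other EGF-family ligands, those that bind EGFR and in part ErbB4, with 2 of 7. Tgfa, a main EGFR ligand, was at 12.5 and 13.1 TPM (12.8 ± 0.42), and Hbegf, which binds EGFR and ErbB4, at 3.37 and 3.79 TPM (3.58 ± 0.30). Tgfa thus lay above Egfr itself in both libraries. Egf was at 0.50 and 0.67 TPM, Btc at 0.63 and 0.28, Epgn at 0.18 and 0.14 and Areg at 0.08 in each, and Ereg had 0 counts in both libraries, which allows up to 3.

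Of the genes for cleavage of ligands and receptors, 8 of 9 were detected. Bace1, the protease that cuts Nrg1 and Nrg3 precursors, was at 32.3 and 32.6 TPM (32.4 ± 0.24), and Adam10, a shedding protease, at 27.5 and 24.8 TPM. Adam17, which cuts the JM-a form of ErbB4, was lower at 8.21 and 6.52 TPM, and is named here after its values were seen. Rhbdf2, a partner in the maturation of ADAM17, was at 0.36 and 0.53 TPM. Its relative Rhbdf1, also named after its values were seen, was at 5.38 and 6.78 TPM.

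Among adaptors and downstream kinases, 18 of 19 were detected, with a median of 33.7 ± 1.32 TPM. Grb2, the adaptor that links receptors to Ras, was at 76.7 and 72.3 TPM. Stat5a, a transcription factor that binds phosphorylated ErbB4, was at 0.59 and 0.43 TPM.

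All 13 inhibitors and ubiquitin regulators were detected, from 1.83 to 121 TPM. Nedd4, a ubiquitin ligase, led at 119 and 122 TPM, followed by Socs5, an inhibitor of EGFR signalling, at 44.7 and 41.6 TPM and Rnf41, the ubiquitin ligase of ErbB3 known as Nrdp1, at 30.5 and 30.1 TPM. The 4 PDZ-domain partners were all detected. Dlg4, the postsynaptic scaffold PSD-95 that binds the ErbB4 tail, was at 355 and 339 TPM, Dlg2 at 106 and 97.1 TPM and Pick1 at 17.6 TPM in each.

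**Figure D4:**
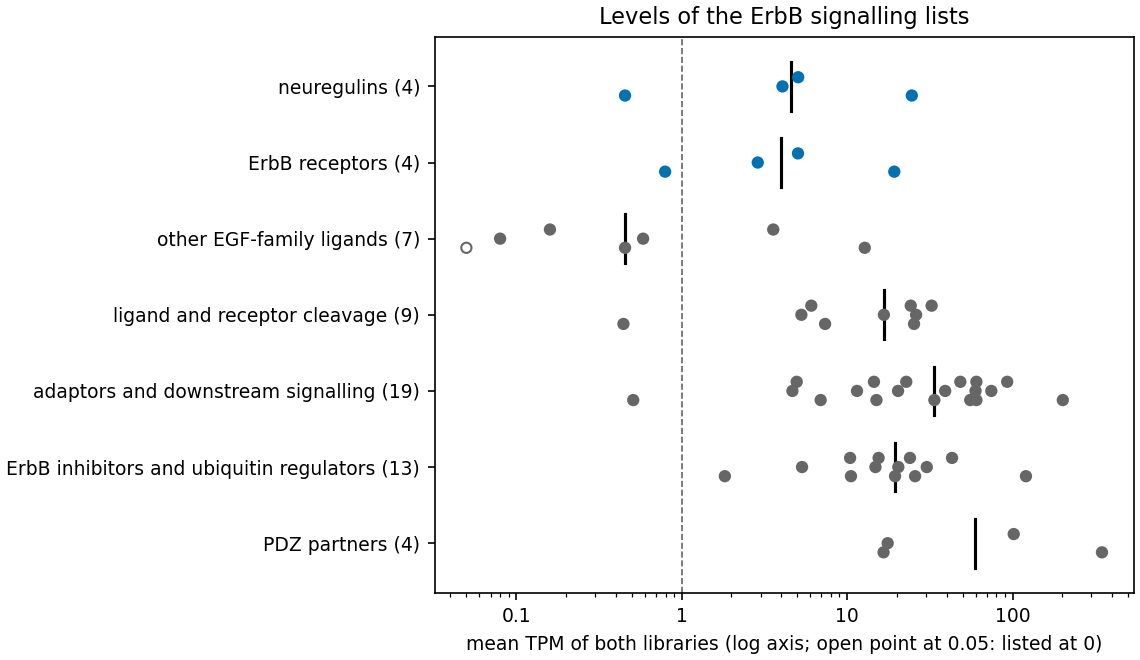
Mean TPM over both libraries, on a log axis, for each gene of the neuregulins, the ErbB receptors (both blue) and the 5 pathway lists (grey), with the number of genes in brackets and a black bar at the list's median. The medians of the adaptor list (33.7 TPM) and the inhibitor list (19.5 TPM) lie above those of the neuregulins (4.57 TPM) and receptors (3.97 TPM), and 5 of the 7 other EGF-family ligands lie under 1 TPM; the open point marks Ereg, listed at 0.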

How the data were processed

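Total RNA of hippocampus was measured in 2 libraries of 1 group, with 32298993 and 30010733 counts on annotated genes. Per the file headers and accompanying notes, the authors deposited a gene table and a transcript table with expected counts, TPM and percent of the gene's TPM, and a second transcript table with estimated counts and TPM, on mm10 with GENCODE M21. TPM bounds in the first tables are used as deposited. The aligner, software versions and use of strand were not given in the sources used here.

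Members were taken by gene symbol. Their expected counts were whole within 0.005, so no rounding was needed. Spike-ins and 26248 numbered entries with no gene name, which held 1.41924e-05% of the counts, were left out of library sizes. Counts were scaled with edgeR 4.0.16 (TMM, R 4.3.3). Log2 ratios used CPM with a prior count of 0.5, over all genes averaging at least 100 counts, and exact binomial 95% intervals for counting error. With 1 library on each side no p-value was computed. The biological coefficient of variation between the libraries, over 18246 genes, was 0.0898. The ratio step was tested on simulated data. Second-quantification gene values are sums over transcripts. Tables used Python 3.11.15, pandas 2.3.3, numpy 2.4.6 and scipy 1.17.1.

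The members and lists were chosen with earlier results of these data known. All members were named, with transcripts holding 5% or more of the gene's TPM in both libraries of either quantification. In each pathway list the 3 genes of highest mean TPM, those under 1 TPM in both libraries and those past 2-fold were named, and in each marker list the highest and those past 2-fold. Some genes of these lists are not reported here. Alternatives were DESeq2 1.42.0 size factors, total counts, spike-in scaling, deposited TPM, the second quantification, other minima and folds, a prior count of 2, and each library alone.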

Additional observations from a re-analysis of the deposited data

How the results depend on the processing

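The number of members detected was 6 as reported and fell to 2 (Nrg3 and Erbb4) at a minimum of 5 TPM. It was 7 at a minimum of 0.5 TPM, and 8 in the second quantification and with TPM rescaled over protein-coding genes. Without either replicate it was 6. No member passed 2-fold under any scaling, count minimum or prior count tried, with Nrg4 and Erbb2 included where no minimum was set. Pairs ordered alike were 26 as reported, 27 in the second quantification and by counts per annotated length, and 24 to 27 of 28 between the quantifications in a single library. Detected pathway genes numbered 45 as reported, and 39 to 47 under the alternatives. Members with 1 leading transcript numbered 7, and 6 to 8 in a single library. Of 48 alternative log2 ratios, 40 lay within the counting interval of the reported one. Of the 8 that did not, most came from spike-in scaling, which moved Nrg1, Nrg2, Nrg3, Egfr, Erbb3 and Erbb4, all the members compared. The others came from deposited TPM, with Nrg2 at 0.67 against 0.20 by counts and Egfr at 0.33 against 0.12. No paired analysis was possible because the libraries form 1 group. Depth limits Nrg4 (12 and 9 counts), the Nrg1 alpha exon (8.94 and 5.86) and the CYT-1 transcript of Erbb4 (40.3 and 24.04).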
